A study of Rattus norvegicus with 25 samples.

Results

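The genes of the proteasome, the enzyme complex that breaks down proteins marked with ubiquitin, were followed in the striatum of adolescent rats. Genes were taken by their symbols, as those whose array probe set carried a single symbol made of Psm, a letter from a to g and a digit. This gave 47 genes of the 14506 genes that had such a probe set. Where a gene had several probe sets, the one with the highest mean over the 25 arrays was used, and 44 of the 47 passed the filter on low values, which kept a probe set if its mean was no lower than that of the median probe set. Psmb8, Psmb11 and Psmc3ip fell below that filter and were not tested. By their symbols the 44 tested genes fell into 16 of the core (Psma and Psmb), 6 of the base (Psmc) and 22 of the lid and other regulators (Psmd to Psmg). Psmc3ip, a factor of meiotic recombination, and Psme3ip1, a partner of the activator PSME3, match these letters although neither encodes a subunit.

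The study asked whether nicotine given to pregnant rats alters striatal gene expression in their offspring, and it included a food-matched group because nicotine also lowers food intake. The Nic group held 7 male offspring of dams that drank nicotine solution before and during pregnancy. The Con-Pf group (pair-fed) held 10 male offspring of dams whose food was limited to the amount eaten by the nicotine dams, with free access to water. The Con group held 8 male offspring of untreated dams. All were Lister Hooded rats with no earlier testing, killed at postnatal day 35 to 42, and RNA of the striatum of each was measured on 1 Affymetrix rat gene array. Exposure was to the dam, and the sources used here do not say which offspring shared a litter. The p-values therefore treat each rat as independent. The descriptions of Con-Pf 9 and Con-Pf 10 read control although their titles name the food-matched group, and the title was followed.

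In the proteasome, a barrel-shaped core of stacked alpha and beta rings holds the cutting sites on its inner face, and a regulatory particle caps one or both ends. The base of this particle carries ATPases that unfold the substrate and thread it into the core, and the lid carries the subunit that removes ubiquitin before entry. Other proteins assist: assembly chaperones build the rings and the base, and activators of the Psme family open the core without ubiquitin. In neurons the complex turns over synaptic proteins.

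RefSeq promoter sequences of build GRCr8 were at hand for 41 of the 47 genes. Those of Psmb5 and Psmd10, the only genes of the set whose difference passed the test in a comparison, are shown here as the 250 bases before the annotated start. Psmb5 lies on the minus strand, with these bases at chr15:32047380-32047629. Capitals mark the match to TGACNNNGC, the core of the antioxidant response element to which NFE2L1 and NFE2L2 bind.
Psmb5: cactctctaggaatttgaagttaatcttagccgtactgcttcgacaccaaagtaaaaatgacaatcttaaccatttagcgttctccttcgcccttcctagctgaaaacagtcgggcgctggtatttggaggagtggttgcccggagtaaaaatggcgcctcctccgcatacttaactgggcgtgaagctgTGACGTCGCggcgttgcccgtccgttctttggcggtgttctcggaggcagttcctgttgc
Psmd10 also lies on the minus strand, with its 250 bases at chrX:109453606-109453855. Capitals mark CCAAT, the box bound by NF-Y, on either strand, and GGGCGG, the box bound by SP1.
Psmd10: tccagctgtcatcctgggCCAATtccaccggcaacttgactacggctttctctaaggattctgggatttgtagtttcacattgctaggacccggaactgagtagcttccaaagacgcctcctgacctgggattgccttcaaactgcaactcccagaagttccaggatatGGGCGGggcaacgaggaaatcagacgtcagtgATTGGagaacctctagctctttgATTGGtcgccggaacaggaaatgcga
The Psmb5 match began 60 bases before the start. In Psmd10, CCAAT began 232 bases before the start on the gene's own strand and lay 49 and 26 bases before it on the other strand, and GGGCGG lay 81 bases before it. Psmb5 held neither CCAAT nor GGGCGG in its window, and Psmd10 held no TGACNNNGC. No match overlapped another within the bases shown.

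Counted on both strands from 250 bases before to 50 bases after each start, SP1 boxes were the motif found in most proteasome promoters. GGGCGG was present in 29 of the 41 proteasome promoters (70.7%), against 33.1% of the 33469 rat promoters of the same length. CCAAT was present in 20 of the 41 (48.8%), against 37.5% of all promoters. TGACNNNGC was present in 7 of the 41 (17.1%), against 12.1% of all promoters, and the 7 genes were Psmb2, Psmb5, Psmb6, Psmd1, Psmd3, Psmd9 and Psme4. Of the 33469 promoters, 6012 are further promoters of a gene already counted, while each of the 41 belongs to a different gene. These shares count letters and were not tested, and a match is not evidence of binding.

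The deposited values are log2 levels made comparable across arrays by quantile normalisation, so that a difference of 1 is a doubling. Over the 14607 probe sets kept, correlations between arrays lay between 0.967 and 0.997. On the first principal component, which held 30.4% of the variance, Con 3 and Con 5 (scores of -25.2 and -33.9) stood apart from the other 23 arrays (scores between -11.6 and 9.63). The tissue label fitted its markers: 9 of 10 genes of striatal projection neurons had a usable probe set, all 9 with group means between 10.1 (Pdyn, in Con) and 13.2 (Penk, in Con-Pf), while the median of all probe sets was 6.97.

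Most proteasome genes were high or low on the same arrays, and Con 3 and Con 5 stood at the bottom. Each gene was set to its own mean over the 25 arrays, and these deviations were averaged over the 44 genes. The averages ran from -0.048 to 0.11 with a median of 0.045 in Nic, from -0.11 to 0.14 with a median of 0.035 in Con-Pf, and from -0.25 to 0.034 with a median of -0.024 in Con. The 3 groups overlapped, and the lowest values of Con came from Con 5 (-0.25) and Con 3 (-0.21). On Con 5, 38 of the 44 genes lay below their own mean, and on Con 3 40 of the 44, while 54.8% and 55.4% of all probe sets did so on these arrays. Con-Pf 1 was also low for most genes, by less, with 39 of the 44 below their mean (60.4% of all probe sets) and an average of -0.11. Con 5 was the lowest of the 25 arrays for 27 of the 44 genes and Con 3 for 6. At the other end, 1 gene of the 44 lay below its mean on Con-Pf 6, 3 on Con-Pf 4 and 4 on Nic 6. Of all probe sets, 46.4%, 38.1% and 33.8% did so on these arrays.

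**Figure D1:**
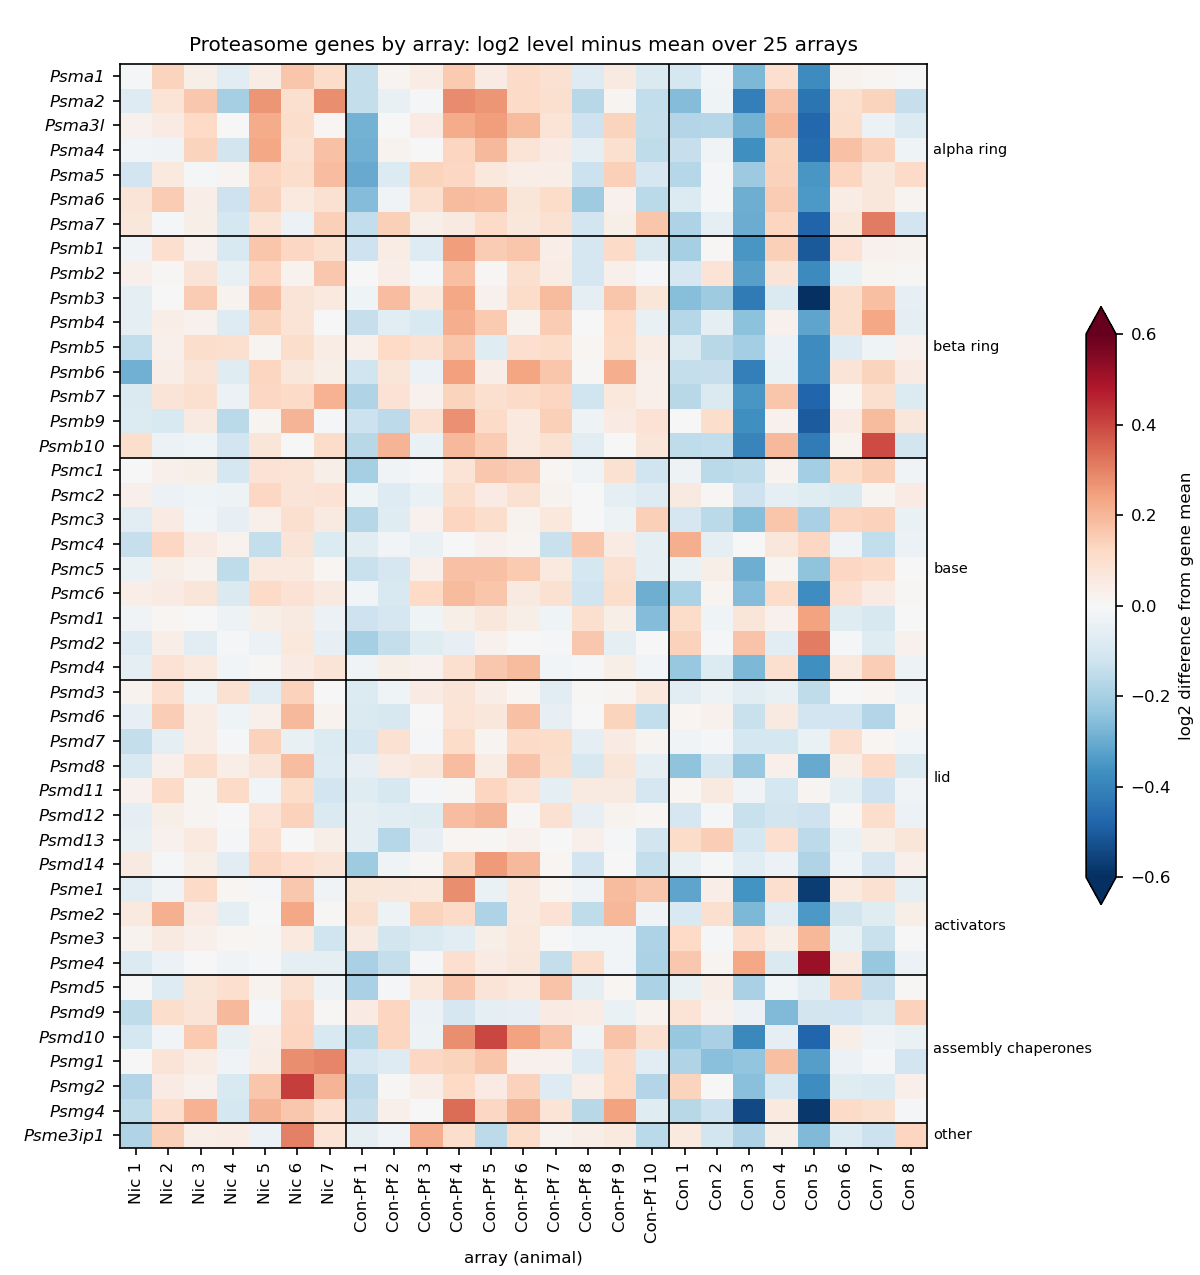
Each row is 1 of the 44 tested proteasome genes, ordered by its place in the complex, and each column is 1 array in the order Nic, Con-Pf, Con. Colour gives the log2 level minus the gene's mean over the 25 arrays. The columns of Con 3 and Con 5 are low for the core genes and for most chaperones, and high for Psmd1, Psmd2, Psme3 and Psme4.

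The low values on Con 3 and Con 5 did not reach all parts of the complex alike. The 7 alpha ring genes averaged deviations of -0.42 on Con 5 and -0.31 on Con 3, and the 9 beta ring genes -0.44 and -0.34. Each of these 16 core genes lay below its mean on both arrays, by deviations between -0.65 (Psmb3, a structural beta subunit, on Con 5) and -0.20 (Psmb5 on Con 3). The 6 assembly chaperones averaged -0.32 on Con 5 and -0.27 on Con 3, with Psmg4, which helps to start the alpha ring, at -0.58 and -0.54. The 8 lid genes averaged only -0.13 and -0.11.

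A few genes went the other way on those arrays. Psme4, the largest activator, deviated by 0.52 on Con 5 and 0.23 on Con 3. Psmd2 and Psmd1, the large scaffolds of the base that dock ubiquitin-bearing cargo, deviated by 0.31 and 0.24 on Con 5 and by 0.17 and 0.074 on Con 3. Psme3, the nuclear activator, deviated by 0.20 and 0.10. For all of these 4 genes Con 5 was the highest of the 25 arrays. Psmc4 and Psmd11 were also at or above their means on Con 5 (deviations of 0.12 and 0.015), and the other base ATPases were below. These genes were picked out after their values were seen.

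**Figure D2:**
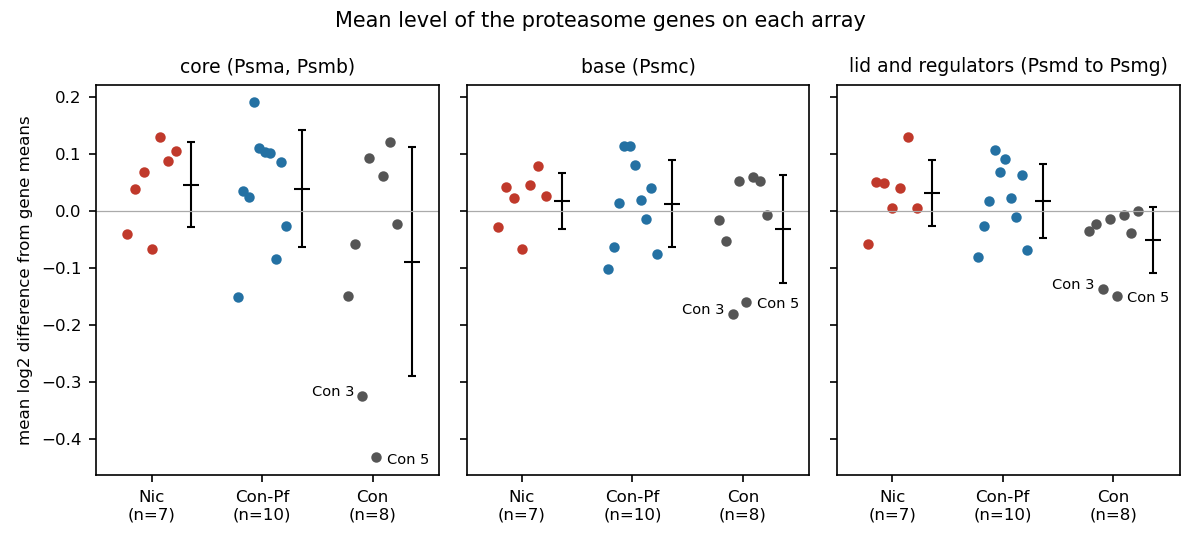
Mean log2 difference of the core, the base and the lid and regulator genes from their gene means, 1 point per array, for Nic (n = 7), Con-Pf (n = 10) and Con (n = 8). Horizontal marks with bars are the group mean and SD. Con 3 and Con 5 are the lowest points in each panel, at -0.33 and -0.43 for the core, and the groups overlap.

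The within-group SD of single genes, with Con 3 and Con 5 included, ran from 0.059 to 0.20 over the 44 genes with a median of 0.13, against a median of 0.12 over all probe sets kept. The steadiest were Psmd3, a lid scaffold (0.059), and the ATPase Psmc2 (0.066). The most variable were Psmg4 (0.20), the alpha subunit Psma2 (0.19) and Psmb10 (0.18). Of the 8 lid genes, the highest SD was 0.12 (Psmd8).

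Of the 44 genes, 2 rose in the food-matched rats relative to the controls, and most of the others lay slightly above the control mean without passing the test. In Con-Pf minus Con, fitted with limma for all 14607 probe sets at once and called at an adjusted p (Benjamini-Hochberg) under 0.05, Psmb5 and Psmd10 rose, and none fell. These were 2 of 44 genes (4.55%), against 1.26% of all probe sets called in either direction, 1% called higher and 0.26% called lower. At an unadjusted p under 0.05, 11 of the 44 genes (25%) were higher and 0 were lower, against 14.2% and 7.76% of all probe sets. A difference above 0 was seen for 38 of the 44, against 55.8% of all probe sets, with a median log2 difference of 0.086 for the proteasome genes and 0.015 for all probe sets. Genes of 1 complex share arrays and are not independent, so the counts are a description. Both genes lost the call without Con 3 and Con 5, and also when any 1 of Con 1, Con 2, Con 3, Con 5, Con-Pf 2, Con-Pf 4, Con-Pf 6, Con-Pf 7 or Con-Pf 9 was left out, at limma adjusted p-values between 0.0506 and 0.103 for these single arrays. Psmb5 alone lost it without Con-Pf 3 or Con-Pf 10, and Psmd10 alone without Con-Pf 5. Both also lost it in the methods' t-test (adjusted p of 0.197 for Psmd10 and 0.208 for Psmb5), without Con-Pf 9 and Con-Pf 10, the arrays described as control (limma adjusted p of 0.0823 and 0.0893), and with these counted as Con (0.312 and 0.318).

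Psmb5 encodes the beta subunit with the chymotrypsin-like site, the main target of proteasome inhibitor drugs (probe set 10783599). Its lowest, median and highest log2 levels were 11.02, 11.19 and 11.26 in Con-Pf and 10.72, 11.01 and 11.12 in Con. The groups overlapped, but 8 of the 10 Con-Pf arrays lay above the highest Con array and all 10 above the Con median, and the lowest Con value was that of Con 5. The 10 Con-Pf arrays averaged 11.17 (SD 0.068) and the 8 Con arrays 10.98 (SD 0.13). The log2 difference was 0.19 (standard error 0.047, limma adjusted p = 0.0403), a 1.14-fold rise. Without Con 3 and Con 5 it was 0.13 (adjusted p = 0.244). The Nic levels were 10.95, 11.14 and 11.20, with a median between those of Con-Pf and Con.

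Psmd10 encodes gankyrin, a chaperone that helps to assemble the base and is also known to bind the retinoblastoma protein (probe set 10822092). Its lowest, median and highest log2 levels were 8.43, 8.74 and 8.99 in Con-Pf and 8.11, 8.46 and 8.62 in Con. The groups overlapped, 7 of the 10 Con-Pf arrays lay above the highest Con array, and 4 of the 8 Con arrays lay below the lowest Con-Pf array. The 10 Con-Pf arrays averaged 8.72 (SD 0.17) and the 8 Con arrays 8.42 (SD 0.19). The log2 difference was 0.30 (standard error 0.072, limma adjusted p = 0.0346), a 1.23-fold rise and the highest value among the 44 genes. Without Con 3 and Con 5 it was 0.21 (adjusted p = 0.275). In Nic the levels were 8.48, 8.57 and 8.75, within the Con-Pf range, and 1 of the 7 Nic arrays lay above the Con-Pf median.

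**Figure D3:**
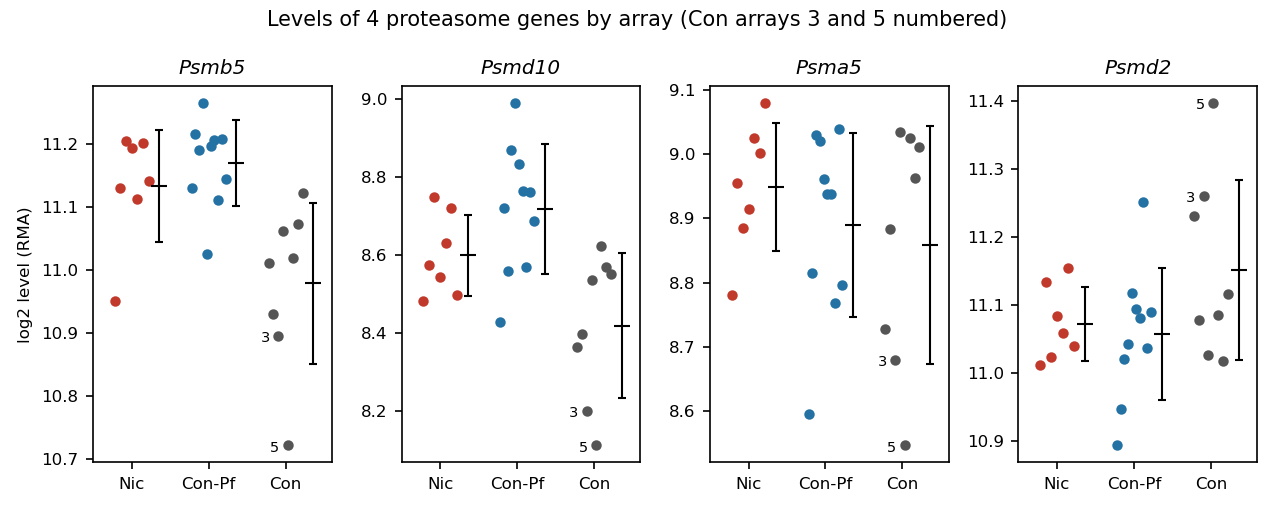
Log2 levels of Psmb5, Psmd10, the alpha subunit Psma5 and the base scaffold Psmd2 on each array, for Nic (n = 7), Con-Pf (n = 10) and Con (n = 8), with the group mean and SD to the right of the points. Con arrays 3 and 5 are numbered: they are the lowest Con points for Psmb5, Psmd10 and Psma5 and the highest for Psmd2. The vertical axes do not start at 0 and differ between panels.

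By place in the complex, the differences of Con-Pf from Con were uneven. All 16 core genes were higher (median 0.13), as were 5 of the 6 Psmc genes (median 0.055) and 17 of the 22 lid and other regulators (median 0.064). Read by function instead, the medians were 0.10 for the alpha ring, 0.13 for the beta ring, 0.12 for the assembly chaperones, 0.060 for the lid, 0.050 for the base with Psmd1, Psmd2 and Psmd4 counted in it, and 0.034 for the activators. Of the genes with the smallest p in each class, none but the 2 called passed the test. Psme1, a subunit of the interferon-inducible activator, differed by 0.21 (adjusted p = 0.123). Psmd8, a lid subunit, differed by 0.15 (adjusted p = 0.142). Psmd4, the ubiquitin receptor of the base, differed by 0.13 (adjusted p = 0.179), and Psma3l, a symbol RefSeq gives as a synonym of the alpha subunit Psma3, by 0.15 (adjusted p = 0.244). Psmb3, picked out after its values were seen, had the next highest difference after Psmd10 at 0.27 (adjusted p = 0.0783).

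The shift was smaller without Con 3 and Con 5, the 2 Con arrays with the lowest averages of these genes. Leaving them out had to lower the average difference, and it left fewer Con arrays for the test. Without Con 3 and Con 5 the median of the 44 genes was 0.024 (0.0080 for all probe sets), and 32 of the 44 were above 0 (72.7%, against 55.2% of all probe sets). Limma then called 0 of the 44 and 85 of all 14607 probe sets, which was also fewer than the 184 over all arrays. At an unadjusted p under 0.05, 3 were then higher (6.82%) and 1 lower (2.27%), against 5.55% and 2.55% of all probe sets. The sign turned for 6 of the 44 genes, among them Psma4, Psma5 and Psma6 of the alpha ring at -0.035, -0.051 and -0.029. The core median was then 0.020 with 12 of 16 genes higher, and that of the Psmc genes 0.00059 with 3 of 6 higher. Leaving out Con 5 alone gave a median of 0.055. Without both arrays Psmd10 (0.21), Psmb3 (0.15) and Psmb5 (0.13) had the highest differences, and Psmd13, a lid subunit, had the lowest at -0.10 (adjusted p = 0.36). The 6 genes below 0 over all arrays were Psmc4, Psmd1, Psmd2, Psmd13, Psme3 and Psme4, of which Psme4 had -0.12 and Psmd2 -0.094. Without the 2 arrays these were -0.018 and -0.035.

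**Figure D4:**
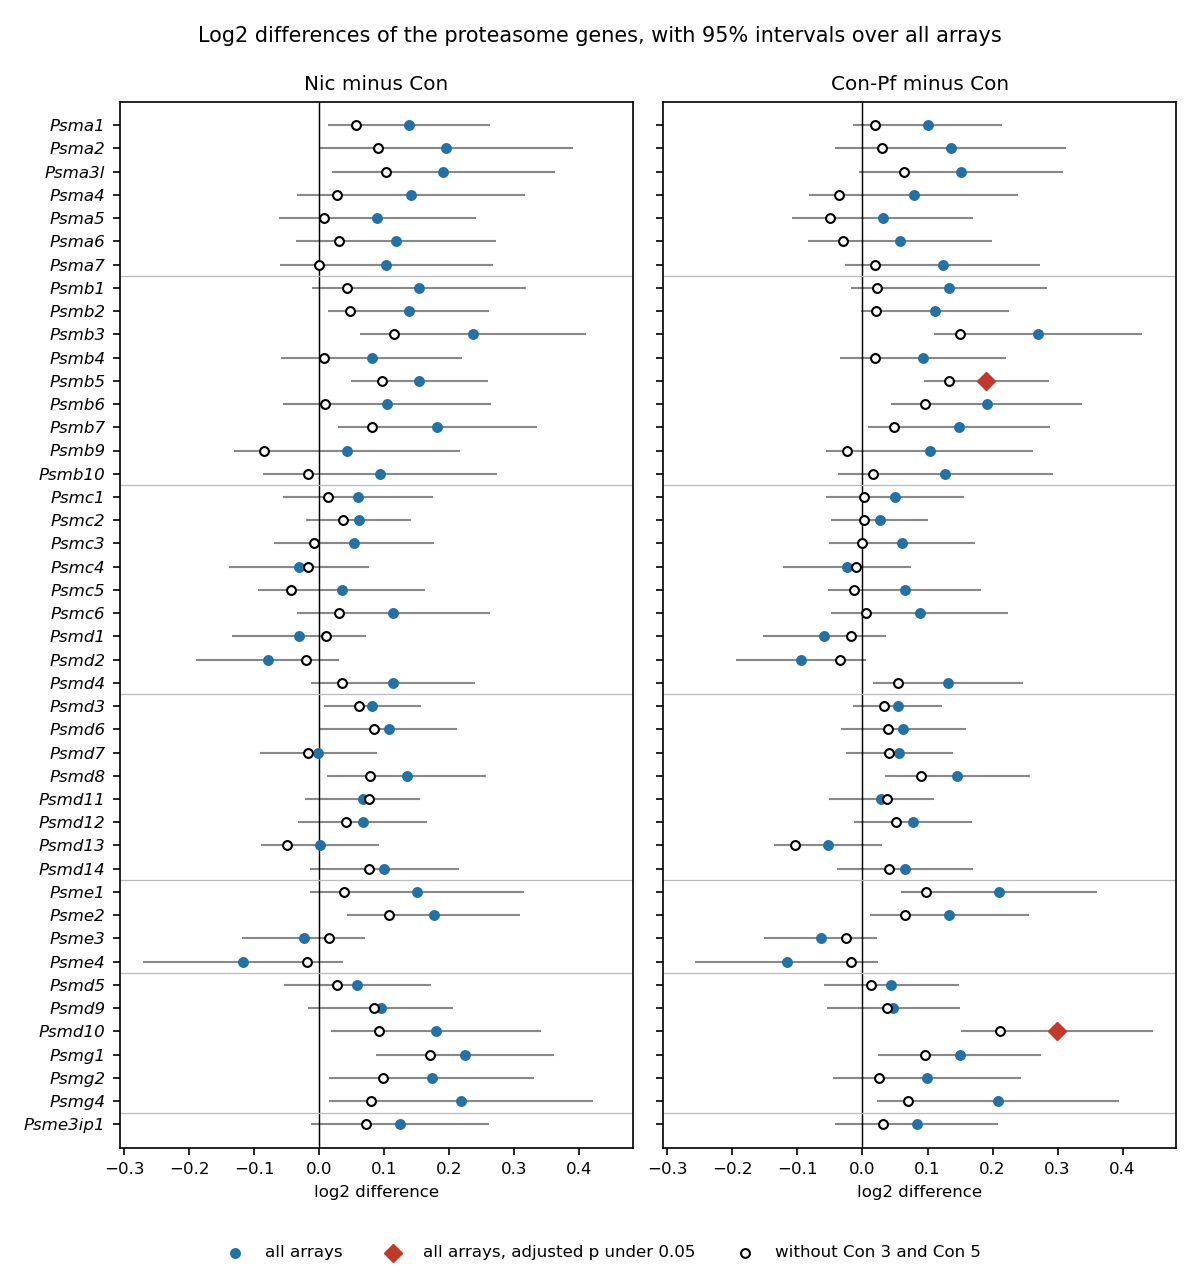
Log2 differences of the 44 proteasome genes, Nic minus Con on the left and Con-Pf minus Con on the right, with 95% intervals from the fit over all arrays. Red diamonds are the 2 genes called, Psmb5 and Psmd10 in Con-Pf minus Con, and open circles are the differences without Con 3 and Con 5, most of which lie nearer to 0.

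In the nicotine-exposed rats most proteasome genes also lay slightly above the control mean, and none passed the test. In Nic minus Con, 0 of the 44 genes were called, as were 0% of all probe sets, and the smallest limma adjusted p over all of them was 0.268. At an unadjusted p under 0.05, 15 of the 44 (34.1%) were higher and 0 lower, against 12.3% and 3.96% of all probe sets. The difference was above 0 for 38 of the 44, against 59.1% of all probe sets, with a median of 0.10 for the proteasome genes and 0.024 for all probe sets. Both this comparison and Con-Pf minus Con use the same 8 Con arrays, so likeness between them is built in.

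Assembly chaperones and core genes held the highest values in Nic minus Con. The chaperones had a median of 0.18 with 6 of 6 above 0, the beta ring and the alpha ring 0.14 each with all 16 genes above 0, the lid 0.075 and the base 0.053. Psmg1, which with Psmg2 guides the assembly of the alpha ring, had lowest, median and highest log2 levels of 9.27, 9.33 and 9.58 in Nic and 8.96, 9.14 and 9.47 in Con. All 7 Nic arrays lay above the Con median and 6 of the 8 Con arrays below the lowest Nic array. The 7 Nic arrays averaged 9.39 (SD 0.13) and the 8 Con arrays 9.16 (SD 0.16), a difference of 0.22 (standard error 0.067, limma adjusted p = 0.268). Psme2, the partner of Psme1, differed by 0.18, Psma3l by 0.19, Psmb5 by 0.15, Psmd8 by 0.13 and Psmd4 by 0.11, with adjusted p-values between 0.268 (Psme2, Psmb5) and 0.34 (Psmd4). Leaving out Con 3 and Con 5, the lowest Con arrays for these genes, had to lower the average difference here too. Without Con 3 and Con 5 the median of the 44 was 0.038 (0.017 for all probe sets), 34 were above 0 (77.3%, against 62% of all probe sets), and 2 were higher at an unadjusted p under 0.05 (4.55%, against 3.7% of all probe sets). The sign turned for 8 of the 44. Psmg1 (0.17) then had the highest difference, and Psmb5 was at 0.097.

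No difference of a proteasome gene between the nicotine-exposed and the food-matched rats was detectable. In Nic minus Con-Pf, 0 of the 44 were called, against 0.185% of all probe sets (0.0137% higher and 0.171% lower), and 0 were under an unadjusted p of 0.05 in either direction, against 2.54% higher and 1.82% lower of all probe sets. The median difference was 0.023, and 27 of the 44 were above 0, against 55.9% of all probe sets. All 44 intervals at 95% included 0 and lay between -0.27 and 0.24, so that larger differences of either sign were outside the interval of every gene. Psmd10 was lowest, with a mean of 8.60 (SD 0.10) over the 7 Nic arrays and 8.72 (SD 0.17) over the 10 Con-Pf arrays, a difference of -0.12 with an interval from -0.27 to 0.035. The genes with the smallest p in the other classes were Psmb6 (-0.087), Psma6 (0.060), Psmd7 (-0.058), Psme3 (0.041) and Psmc2 (0.035), none of which passed the test.

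The 3 constitutive catalytic subunits had similar small differences. Psmb6, which cuts after acidic residues, averaged 10.39 ± 0.14 in Nic, 10.47 ± 0.13 in Con-Pf and 10.28 ± 0.20 in Con (SD, n = 7, 10 and 8). Psmb7, which cuts after basic residues, averaged 11.61 ± 0.10 in Nic, 11.58 ± 0.11 in Con-Pf and 11.43 ± 0.22 in Con. Against Con, Psmb6 differed by 0.10 in Nic and 0.19 in Con-Pf, and Psmb7 by 0.18 and 0.15, none passing the test. Without Con 3 and Con 5, Psmb6 differed by 0.0092 in Nic and 0.096 in Con-Pf, and Psmb7 by 0.081 and 0.049.

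Their inducible counterparts, which replace them in the immunoproteasome of immune and interferon-exposed cells, did not pass the test either, and Psmb8 was below the filter. Psmb9 averaged 7.32 ± 0.12 in Nic, 7.38 ± 0.13 in Con-Pf and 7.28 ± 0.25 in Con. Psmb10 averaged 8.05 ± 0.083 in Nic, 8.08 ± 0.12 in Con-Pf and 7.95 ± 0.28 in Con. Against Con, Psmb9 differed by 0.043 in Nic and 0.10 in Con-Pf, which were -0.085 and -0.024 without Con 3 and Con 5. Psmb10 differed by 0.093 in Nic, or -0.017 without the 2 arrays, and by 0.13 in Con-Pf, or 0.017 without them. Psmb8 had means of 6.59, 6.67 and 6.55 in Nic, Con-Pf and Con, Psmb11, the thymus-specific subunit, of 5.66, 5.61 and 5.65, and Psmc3ip of 6.87, 6.84 and 6.71, all below the filter.

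At the study's own thresholds, a log2 fold change of at least 0.5 with an unadjusted p under 0.01, 0 of the 44 genes passed in any comparison with the moderated p of limma, against 0.0205% of all probe sets in Nic minus Con, 0.199% in Con-Pf minus Con and 0.103% in Nic minus Con-Pf.

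Genes that work with the proteasome but lie outside the symbol rule showed small differences and no calls. Of a list of 30 such genes, 20 had a usable probe set, and 0 of 20 were called in any of the 3 comparisons. Of all probe sets, 0% were called in Nic minus Con, 1.26% in Con-Pf minus Con and 0.185% in Nic minus Con-Pf. A count of 0 among 20 genes is close to these shares. The medians of the list were 0.048 in Nic minus Con, 0.049 in Con-Pf minus Con and 0.0092 in Nic minus Con-Pf. Those of all probe sets were 0.024, 0.015 and 0.0082. The mean deviation of these genes was lowest on Con 5 (-0.094) and Con 3 (-0.080). The part of these arrays in the differences of the list was not tested. In Con-Pf minus Con the smallest adjusted p was that of Adrm1, a ubiquitin receptor on the base, at 0.0665 with a difference of 0.18 (0.16 in Nic minus Con). Pomp, the maturation factor that completes the beta rings, averaged 9.80 ± 0.052 in Nic, 9.84 ± 0.047 in Con-Pf and 9.62 ± 0.23 in Con, with differences of 0.17 and 0.22 from Con (adjusted p = 0.273 and 0.0802). Nfe2l1, a transcription factor that raises proteasome genes when the complex is inhibited, differed by -0.069 in Nic and -0.056 in Con-Pf. Ddi2, the protease that releases NFE2L1 in active form, differed by -0.12 and -0.11. The deubiquitinases Usp14 and Uchl5 and the unfoldase Vcp did not pass the test either, with differences from Con between -0.082 and 0.14.

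Marker genes of other cell types varied between arrays of each group. In bulk tissue, fewer cells of a type and less RNA per cell cannot be told apart. None of the marker lists had a called gene in any comparison, against 0%, 1.26% and 0.185% of all probe sets in Nic minus Con, Con-Pf minus Con and Nic minus Con-Pf. The mean deviation of 3 kept cortical excitatory neuron genes (of 8 listed) ran from -0.40 to 1.42 in Nic, from -0.44 to 0.081 in Con-Pf and from -0.33 to 0.80 in Con. That of 2 kept choroid plexus genes (of 6 listed) ran from -1.32 to 1.28 in Nic, from -1.16 to 3.62 in Con-Pf and from -1.27 to 3.10 in Con. On Con 3 and Con 5 the microglial list was low (-0.16 and -0.23), and the astrocyte list was high (0.16 on each) within ranges of -0.14 to 0.037 in Nic, -0.081 to 0.13 in Con-Pf and -0.15 to 0.16 in Con. The endothelial list of 8 genes was highest of the 25 arrays on Con 5 (0.16), and Con 3 (0.10) lay below Con 7 (0.11). Its ranges were -0.13 to 0.095 in Nic, -0.11 to 0.080 in Con-Pf and -0.099 to 0.16 in Con. Of its genes, 1 was above 0 in Nic minus Con (median -0.068) and 0 in Con-Pf minus Con (median -0.056). On Con 3 and Con 5 striatal projection neuron genes deviated by 0.011 and -0.063. The part of these differences in the proteasome values was not tested. The methods mention 1 sample of low RNA integrity that was kept but do not say which, and its part was not tested.

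Second probe sets that passed the filter did not all have the sign of the first. It turned for Psmc4 in both comparisons with Con and for Psme3 in Nic minus Con, all at small differences. The second probe set of Psme2 differed by 0.21 in Nic minus Con and 0.14 in Con-Pf minus Con, against 0.18 and 0.13 for the first. That of Psmb6 differed by 0.038 and 0.14, against 0.10 and 0.19. That of Psmc4 differed by 0.0039 and 0.018, against -0.031 and -0.024, and that of Psme3 by 0.011 and -0.054, against -0.024 and -0.064. RefSeq names 50 further genes or pseudogenes after 18 of the 47 genes, 10 of them after Psmb3 and 5 after Psma6, and the part of such copies in the signal of the short probes was not tested. It names none after Psmb5 or Psmd10.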

How the data were processed

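Striatal RNA of 7 Nic, 10 Con-Pf and 8 Con male rats was hybridised to 1 array each, of the Affymetrix rat gene 1.0st design. The authors made the deposited log2 values with RMA (background correction, quantile normalisation, summary per probe set). Per the labels the submitters also used Affymetrix Expression Console 1.1. The study removed 2 Con arrays and 1 Nic array before deposit, and its text also gives group sizes of 10 Con and 8 Con-Pf arrays. The labels (8 Con and 10 Con-Pf) were followed. Arrays give no count depth, so the number of arrays limits the precision. Litter, extraction day and hybridisation date per array are not given in the sources used here, although the study balanced the dates across groups.

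Symbols came from a platform annotation: of 29214 probe sets, 15310 carried 1 symbol, 323 several and 13581 none. RefSeq (GRCr8) knows 46 of the 47 symbols as current. The probe set of Psma3 carries 2 symbols and was left out. Probe sets with a mean at or above the median (6.97) were kept, 14607 in all. A single linear model over the 25 arrays, with group and no covariate, was fitted with limma 3.58.1 in R 4.3.3, with version 1.17.8 of the data.table package, and p-values were adjusted by Benjamini-Hochberg over the probe sets kept, with calls at 0.05. The script was tested on simulated data. The study names a Student's t-test. As alternatives, a t-test was run without pooled variance (called the methods' t-test here) and with pooled variance. Figures used Python 3.11.15 and matplotlib 3.10.9.

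The genes and lists were chosen with earlier results of these data known. Named genes were those called, the gene with the smallest p in each functional class and comparison, Psmb5 to Psmb10 among the catalytic subunits, and Psmc3ip. Others are said to have been picked out after their values were seen, apart from second probe sets, genes of SD extremes, illustrations of a class and all genes of a short list. Alternatives were other tests, filters and scalings, array weights, the replicate number as a block, other treatments of Con-Pf 9 and Con-Pf 10, and leaving out arrays.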

Additional observations from a re-analysis of the deposited data

Results flagged for a closer look

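The sets of values tested numbered 57, each a named gene, or the average deviation of the proteasome genes, in a group. Of these, 4 held an array far from the rest of its group by Dixon's criterion, where chance marks about 1 in 20 groups. All 4 were in Nic. Psmb5 was low on Nic 1 at 10.95, against 11.11 to 11.20 on the other 6 Nic arrays. Psma6 was low on Nic 4 at 9.98, against 10.14 to 10.25. Psme3 was low on Nic 7 at 10.79, against 10.92 to 10.97. Psmc3ip, which is below the filter, was high on Nic 3 at 7.17, against 6.72 to 6.91. Con 3 and Con 5 are 2 of 8 Con arrays, and a pair of low values does not set off this criterion.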

How the results depend on the processing

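The number of proteasome genes called in Con-Pf minus Con, 2 over all arrays, depended on the setting. It was 0 with the methods' t-test after Benjamini-Hochberg, with the pooled-variance t-test, with limma on the 2 compared groups only, with no filter, without Con-Pf 9 and 10, with those 2 counted as Con, and without Con 3 and Con 5. It was 1 with the stricter filter (Psmb5, while Psmd10 was below that filter and not tested) and with arrays centred on their medians (Psmd10), and 3 with array weights (Psmb3 added). Leaving out 1 array at a time gave 0 to 3, with 0 without Con 1, Con 2, Con 3, Con 5, Con-Pf 2, Con-Pf 4, Con-Pf 6, Con-Pf 7 or Con-Pf 9, 1 without Con-Pf 3, Con-Pf 5 or Con-Pf 10, and 3 without Con 6 or Con 7. Calls over all probe sets moved as well, from 184 of 14607 over all arrays. They were 66 with the methods' t-test, 84 with pooled variance, 99 with the 2 groups only and 96 of 29214 with no filter. Without Con-Pf 9 and 10 they were 116, with those counted as Con 27, and without Con 3 and Con 5 85. With array weights they were 196, and leaving out 1 array gave 104 (Con 3) to 480 (Con 7). At the study's thresholds the methods' t-test passed 0 of the 44 genes in each comparison. In each of these settings in which they were tested, the differences of Psmb5 and Psmd10 stayed above 0, with leave-one-out ranges of 0.15 to 0.21 and 0.25 to 0.33. The counts of 0 in Nic minus Con and Nic minus Con-Pf were 0 in all settings run. Leave-one-out medians of the 44 genes were 0.073 to 0.13 in Nic minus Con, 0.055 to 0.11 in Con-Pf minus Con and 0.0029 to 0.035 in Nic minus Con-Pf. Among the differences of single genes recomputed in each setting, signs turned for Psmb9 in Nic minus Con with array weights (-0.028), without Con 3 (-0.00252), without Con 5 (-0.021) and without both (-0.085), for Psmb9 in Con-Pf minus Con without both (-0.024), and for Psmb10 in Nic minus Con without both (-0.017). The leave-one-out range of Psmb9 in Nic minus Con was -0.021 to 0.078. The cause was not tested for any of these changes.

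Pairing of the samples by replicate number was not evident, and 7 same-numbered pairs per comparison are too few to decide it. Correlations of same-numbered arrays ran from -0.36 to 0.31 for Nic and Con, and from 0.025 to 0.18 for Con-Pf and Con. For Nic and Con-Pf they ran from -0.21 to 0.34. With the replicate number as a block over replicates 1 to 7, 1 proteasome gene (Psmb5) was called in Con-Pf minus Con, against 0 over the same arrays with no block. Of all 14607 probe sets, 153 were called with the block and 132 without it.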
